A study of Mus musculus with 9 samples.

Results

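MyoD-tdTomato low cells are cultured muscle stem cells that carry little of a MyoD reporter and were sorted from the same cultures as cells that carry much of it. The genes described here are those whose level in MyoD-tdTomato low cells lay above both of the other groups or below both, in a contrast of MyoD-tdTomato low cells with the mean of the other 2 groups on the log2 scale. Of 12614 genes tested out of 25655 in the table, 6644 lay off the line in this sense by their fitted level, 2179 of these were called in the contrast, and 145 were called against each of the other groups separately, 15 above both and 130 below both. Muscle stem cells (MuSCs) sit under the basal lamina of the muscle fibre and are kept quiescent there, with *Pax7* on. When activated they make MYOD, divide as myoblasts, and then either withdraw from the cycle and build the contractile and energy machinery of muscle, or return to a stem-like state. They also make part of the matrix around themselves, in which fibronectin and collagen VI are known components of the stem cell niche.

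RNA was sequenced from 3 groups of mouse cells with 3 libraries each. QSCs were MuSCs isolated from leg muscle of male Pax7-YFP mice of 15 to 16 weeks, with YFP at both *Pax7* alleles (Pax7 YFP/YFP), and were not cultured. The MyoD-tdTomato low group and the MyoD-tdTomato high group were MuSCs of MyoD-KI mice (MyoD KI/+ on a C57BL/6 background), in which tdTomato was inserted at the endogenous *MyoD* gene. They were taken from the hindlimb muscle of mice of 10 to 16 weeks with magnetic beads against integrin α7, grown for 5 days in growth medium and sorted on tdTomato, so that both cultured groups share genotype, isolation and culture and differ in the gate alone, while QSCs differ from both in mouse line, isolation and culture, which cannot be told apart. The methods of the study call the libraries technical replicates, so the p-values measure only the spread between libraries. In bulk RNA, fewer cells of a type and less RNA per cell cannot be told apart.

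Library totals ranged from 7514633 to 18077031 counts in QSCs and from 24471782 to 26782872 in the cultured groups. QSCs replicate 2 stood apart, with the lowest total and 2992 CPM (counts scaled to library size with TMM factors) in odorant, pheromone and taste receptor genes against 562 and 768 in the other QSCs libraries and 20.4 to 29.6 in the cultured ones. *Myod1*, the tagged gene, was at 700.2, 729 and 699.7 CPM in cells gated low and at 1486, 1446 and 1456 CPM in MyoD-tdTomato high cells, and the groups did not overlap. *Pax7*, which defines MuSCs, was at 141 to 151 CPM in MyoD-tdTomato low cells. Endothelial, tenocyte and fibro-adipogenic progenitor markers, of which 15, 5 and 8 were tested, lay between the other groups in MyoD-tdTomato low cells for every gene. Over all 20, 8 and 16 listed genes, tested or not, the sums were 80.9 to 97.9, 81.7 to 85.9 and 518 to 827 CPM there. QSCs had 779 to 1531, 1100 to 1262 and 2417 to 3199 CPM, and MyoD-tdTomato high cells 36.5 to 38.6, 131 to 138 and 465 to 591 CPM. Of the tenocyte sum, *Chodl*, not tested and also listed as a MuSC marker, held 602 to 734 CPM in QSCs. *Scx* held 71.3 to 76.4 CPM of it in MyoD-tdTomato low cells. *Gsn* held 425 to 732 CPM of the fibro-adipogenic sum in MyoD-tdTomato low cells.

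Calls were made with edgeR's quasi-likelihood test where the adjusted p was under 0.01 and the fold exceeded 1.5. In the single contrast 2980 genes were called, 23.6% of those tested, of which MyoD-tdTomato low cells were higher at 1292 and lower at 1688. That contrast is also passed by genes at which MyoD-tdTomato low cells equal 1 group and differ from the other, and 801 of the 2980 lay between the groups. A call against each group separately was therefore required for the genes described below. By these calls MyoD-tdTomato low cells were higher than QSCs at 22.6% of genes tested and lower at 26.5%. They were called higher than MyoD-tdTomato high cells at 1.23% (155 genes) and lower at 3.88% (490 genes). Genes above both groups were 0.119% of those tested and genes below both 1.03%. They made up 9.68% of the 155 and 26.5% of the 490. The 2 comparisons share the MyoD-tdTomato low libraries, so a library that departs from its group moves both.

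**Figure D1:**
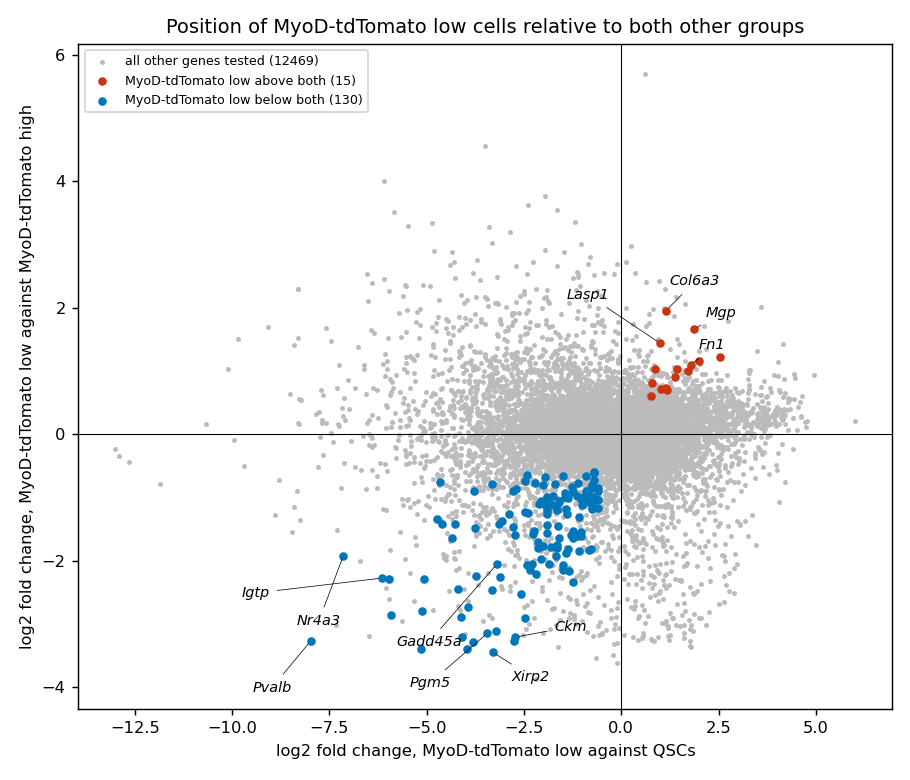
Log2 fold change of MyoD-tdTomato low cells against QSCs (horizontal axis) and against MyoD-tdTomato high cells (vertical axis), with 1 point per gene tested. The 15 genes called above both groups lie at the upper right, near the origin, and the 130 called below both spread over the lower left, where *Nr4a3* lies at -7.14 against QSCs and -1.92 against MyoD-tdTomato high cells.

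The distance to the nearer group, which is the smaller of the 2 log2 fold changes, had a median of 0.99 above and -1.24 below, and exceeded 2-fold for 7 of 15 and 86 of 130 genes. In both sets the 3 MyoD-tdTomato low libraries lay outside the range of the other 6 libraries for every gene. The genes were selected by a call against each group in these libraries, so this adds no support of its own. MyoD-tdTomato high cells were the nearer group for 11 of the 15 and 85 of the 130. By the same rule QSCs were above both cultured groups at 2875 genes and below both at 2482, and MyoD-tdTomato high cells above both others at 344 and below both at 134.

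Single genes of the extracellular matrix stood at the head of the 15 genes higher in MyoD-tdTomato low cells than in either other group. *Fn1*, which encodes fibronectin and lies on chromosome 1 of GRCm39 from 71624679 to 71692359, was at 138, 103 and 108 CPM in QSCs replicates 1 to 3, at 436, 385 and 393 CPM in MyoD-tdTomato low cells and at 185, 209 and 174 CPM in MyoD-tdTomato high cells. The lowest MyoD-tdTomato low library was thus well above the highest of the other 6. On the log2 scale the difference was 1.80 (SE 0.13, adjusted p = 1.02e-06) against QSCs and 1.10 (SE 0.13, adjusted p = 0.00131) against MyoD-tdTomato high cells. *Mgp*, whose product inhibits calcification of the matrix (chromosome 6, 136849433 to 136852821), was at 85.8, 61.1 and 56.0 CPM in QSCs, 368, 168 and 209.7 CPM in MyoD-tdTomato low and 95.8, 73.2 and 66.3 CPM in MyoD-tdTomato high cells. Its libraries spread more widely than those of *Fn1* within MyoD-tdTomato low cells, where replicate 1 was highest, and its log2 fold change to the nearer group, MyoD-tdTomato high cells, was 1.66 (SE 0.28, adjusted p = 0.00425). *Col6a3*, a chain of collagen VI, was at 52.4, 34.7 and 31.9 CPM in QSCs and at 121, 70.3 and 74.3 CPM in MyoD-tdTomato low cells. MyoD-tdTomato high cells had 21.8, 30.7 and 15.7 CPM, so QSCs were the nearer group here, with a log2 difference of 1.15 (SE 0.29, adjusted p = 0.00543).

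Enzymes and helpers of matrix assembly were also among the 15. *Loxl3*, a lysyl oxidase that crosslinks collagen and elastin, was at 10.02 to 17.2 CPM in QSCs, 64.0 to 96.2 CPM in MyoD-tdTomato low and 26.3 to 39.4 CPM in MyoD-tdTomato high cells (log2 distance to the nearer group 1.22, SE 0.23, adjusted p = 0.00681). *Efemp2* encodes fibulin-4, an organiser of elastic fibres, and had the smallest distance of the 15, with 84.2 to 86.8 CPM against 46.1 to 53.6 in QSCs and 51.2 to 64.3 in MyoD-tdTomato high cells (0.61, SE 0.12, adjusted p = 0.00957). *Mmp14*, a protease anchored in the cell membrane that cuts collagen, was at 183 to 217 CPM against 73.8 to 93.9 in QSCs and 109.9 to 137 in MyoD-tdTomato high cells (0.71, SE 0.13, adjusted p = 0.00696). *Tsku* encodes a secreted protein that binds ligands of the BMP and WNT pathways. It was at 26.1 to 28.6 CPM in MyoD-tdTomato low cells, 4.98 to 8.75 CPM in QSCs and 9.89 to 14.2 CPM in MyoD-tdTomato high cells (1.16, SE 0.23, adjusted p = 0.00854). The same-numbered libraries of the cultured groups were found to be paired. With the replicate number as a block over these groups *Mmp14*, *Efemp2* and *Tsku* were no longer called (adjusted p = 0.0148, 0.0201 and 0.0207). In that fit the comparison with MyoD-tdTomato high cells was paired, but the level set against QSCs was the fitted level of replicate 1. It was not the mean of the 3 libraries. Calls and distances given with the block therefore depend in part on which library is numbered 1. *Loxl3* and *Efemp2* overlap genes on the opposite strand (*Htra2* and *Mus81*), and strand use in counting is not stated, so reads of these pairs may not have been parted.

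By list, 3 of 29 tested matrix glycoproteins (*Fn1*, *Mgp*, *Efemp2*), 1 of 23 collagen-modifying enzymes (*Loxl3*) and 1 of 26 pericellular proteases and inhibitors (*Mmp14*) were above both groups, against 0.119% of all genes. The median log2 fold change of the matrix glycoproteins was 0.15 against QSCs and 0.71 against MyoD-tdTomato high cells, where the medians of all genes were -0.07 and 0.00. Against QSCs 10 of the 29 were called higher and 11 lower, where 22.6% and 26.5% of all genes were. By fitted level alone 15 of the 29 lay above both groups, against 25.1% of all genes. None of 12 fibrillar collagens, 20 basement membrane genes, 21 hyaluronan and proteoglycan genes or 19 integrins was called above both. The medians of the fibrillar collagens and the basement membrane genes were -0.92 and -0.46 against QSCs, and 0.85 and 0.37 against MyoD-tdTomato high cells. Called lower than in QSCs were 3 fibrillar collagens and 8 basement membrane genes, and 2 and 7 were called higher. With the block, *Ccn5*, *Pcolce2* and *Col12a1*, which encode a matricellular protein, an enhancer of procollagen cleavage and a fibril-associated collagen, were called above both as well. In the other direction, *Ogn* of the hyaluronan and proteoglycan list was then called below both. Its log2 fold change in that fit was -2.44 for replicate 1 against QSCs and -1.53 against MyoD-tdTomato high cells (larger adjusted p = 0.00143).

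The other genes above both groups act inside the cell. *Lasp1*, which encodes an actin-binding protein of focal adhesions, was at 88.1, 92.0 and 80.2 CPM in QSCs, at 168, 193 and 158 CPM in MyoD-tdTomato low cells and at 48.0, 85.2 and 57.3 CPM in MyoD-tdTomato high cells. QSCs were the nearer group, at a log2 distance of 0.99 (SE 0.19, adjusted p = 0.000892), and MyoD-tdTomato high cells lay lower still at 1.44 (SE 0.19, adjusted p = 0.0016). *Ehd2*, an ATPase at the neck of caveolae, was at 290.3 to 349 CPM against 148 to 203 in QSCs and 143 to 172 in MyoD-tdTomato high cells (0.86, SE 0.14, adjusted p = 0.000284). *Hdac7* encodes a class II histone deacetylase that binds MEF2 transcription factors. Its level was 82.5 to 95.2 CPM against 22.7 to 28.6 in QSCs and 39.5 to 50.6 in MyoD-tdTomato high cells (1.00, SE 0.14, adjusted p = 0.00225), and it overlaps *Slc48a1* on the other strand. *Peg10*, an imprinted gene derived from a retrotransposon, was at 67.6 to 82.2 CPM against 22.4 to 32.4 in QSCs and 32.9 to 41.8 in MyoD-tdTomato high cells (1.04, SE 0.16, adjusted p = 0.00309). *Eml1* (a microtubule-binding protein), *Anxa1* (annexin A1, which binds membranes with calcium) and *Dab2* (an endocytic adaptor) had distances of 0.79, 0.73 and 0.73, and all 3 lost the call with the block (adjusted p = 0.0118, 0.0178 and 0.0115). The last of the 15, *1700017B05Rik*, is named by a clone, stands outside the rule for named genes and had a distance of 0.90.

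**Figure D2:**
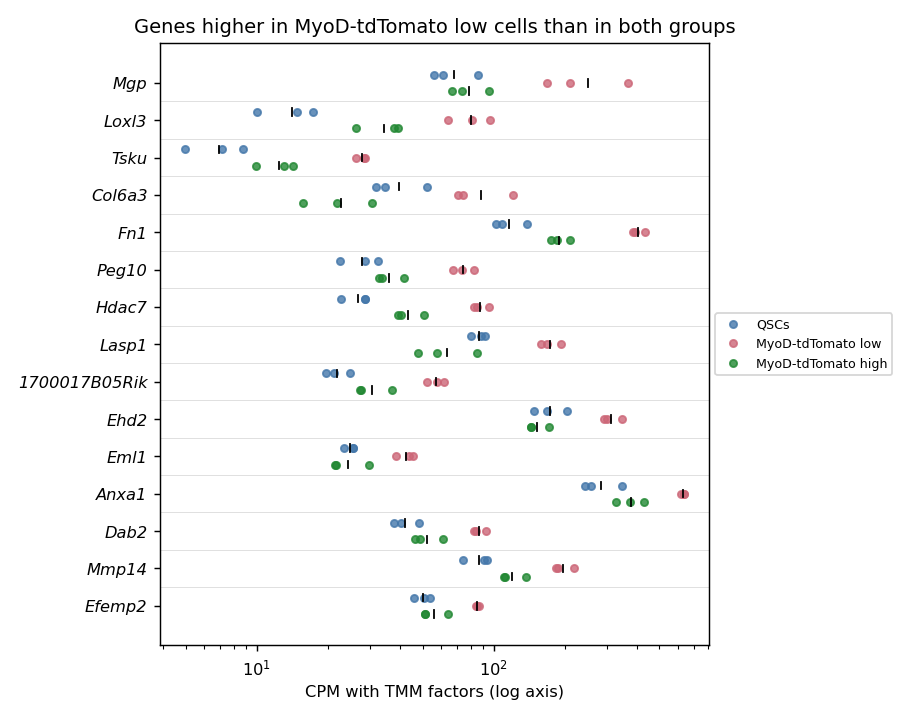
Level of the 15 genes above both groups in each library, in CPM with TMM factors on a log axis, with 3 points per group and a short bar at the group mean. In every line the 3 MyoD-tdTomato low points lie to the right of the other 6, with narrow gaps for *Eml1* (38.7 against 29.7 CPM) and *Efemp2* (84.2 against 64.3 CPM).

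Of the 14 genes the study names for this population, *Fn1* and *Mmp14* were called above both groups and 10 others lay above both by fitted level without the call. By fitted level 25.1% of all genes tested lay above both. All but *Pax7*, *Myf5* and *Myod1* were picked by the study from these same libraries. They were picked as higher than in MyoD-tdTomato high cells, with no matching change of QSCs, so their position is not independent support. *Has2*, a hyaluronan synthase, was at 21.7, 21.1 and 19.7 CPM in MyoD-tdTomato low cells, with 4.50, 9.77 and 6.64 CPM in QSCs and 9.69, 8.11 and 7.66 CPM in MyoD-tdTomato high cells. The groups did not overlap, and the comparison with MyoD-tdTomato high cells fell just short (log2 distance 1.30, SE 0.27, adjusted p = 0.0106). *Angpt1*, the angiopoietin ligand of the TIE2 receptor, was at 15.1 to 22.7 CPM against 3.79 to 10.3 in QSCs and 7.78 to 9.55 in MyoD-tdTomato high cells, also without overlap (1.07, SE 0.32, adjusted p = 0.0549). *Csf1*, a growth factor of macrophages, was at 784 to 972 CPM against 101 to 123 in QSCs and 439 to 666 in MyoD-tdTomato high cells (0.67, SE 0.16, adjusted p = 0.0222), and was called with the block (adjusted p = 0.00809). DESeq2 called *Has2*, *Angpt1* and *Csf1* above both, and also *Foxc2*, *Smad7*, *Col4a2* and *Lamb1*. *Foxc2*, *Lamb1*, *Col4a2*, *Nid1*, *Smad7* and *Cxcl12* had distances of 0.94, 0.67, 0.62, 0.91, 0.56 and 0.28, with adjusted p = 0.0482, 0.0434, 0.0248, 0.0737, 0.0534 and 0.384 for the weaker of the 2 comparisons. *Myf5* was at 133 to 154 CPM in MyoD-tdTomato low, 121 to 144 in QSCs and 91.7 to 114 in MyoD-tdTomato high cells, where MyoD-tdTomato low cells and QSCs overlapped. *Pax7* lay between the groups, and *Myod1* lay below both by 0.07 with QSCs at 534 to 897 CPM around it.

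The 130 genes lower in MyoD-tdTomato low cells than in either group included genes of the energy supply and calcium handling of muscle. Of 36 tested genes of calcium release, excitation and energy buffering, 7 (19.4%) were below both groups, against 1.03% of all genes, and 20 lay below both by fitted level against 27.6% of all genes. The median log2 fold change of the list was -1.06 against QSCs and -2.18 against MyoD-tdTomato high cells. *Ckm*, the muscle creatine kinase that buffers ATP (chromosome 7, 19138701 to 19156766), was at 46.9, 101 and 135 CPM in QSCs, 24.3, 5.19 and 13.5 CPM in MyoD-tdTomato low and 169, 86.2 and 141 CPM in MyoD-tdTomato high cells. Its lowest QSCs library lay above its highest MyoD-tdTomato low library, though the QSCs libraries differed widely, and the difference on the log2 scale was -2.72 (SE 0.53, adjusted p = 0.00105) against QSCs and -3.21 (SE 0.54, adjusted p = 0.00414) against MyoD-tdTomato high cells. *Pygm*, which releases glucose units from muscle glycogen, was at 73.8, 83.7 and 88.8 CPM in QSCs, 43.0, 23.3 and 37.5 CPM in MyoD-tdTomato low and 229, 127 and 169 CPM in MyoD-tdTomato high cells. Here QSCs were the nearer group at -1.25 (SE 0.25, adjusted p = 0.00121).

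*Pgm5*, a relative of phosphoglucomutase found at muscle cell junctions, was at 92.2, 56.7 and 64.8 CPM in QSCs, 9.74, 2.67 and 7.31 CPM in MyoD-tdTomato low and 90.0, 31.4 and 52.9 CPM in MyoD-tdTomato high cells, and was low in all 3 MyoD-tdTomato low libraries alone (-3.14, SE 0.48, adjusted p = 0.00268). *Abcc9*, the regulatory subunit of ATP-sensitive potassium channels, was at 1.56 to 5.72 CPM against 22.2 to 26.5 in QSCs and 19.7 to 54.8 in MyoD-tdTomato high cells (-2.75, SE 0.46, adjusted p = 0.000398). It also marks pericytes, a list of which 10 genes were tested, 2 lay above both groups, 2 below both and *Abcc9* alone was called without the block. With the block *Pdgfrb*, a receptor of platelet-derived growth factor, was called above both (adjusted p = 0.000902). Its distance of 1.72 to the nearer group, QSCs, is that of replicate 1, where its level was highest. Its levels were 99.5, 34.8 and 52.8 CPM in MyoD-tdTomato low cells and 37.9, 25.8 and 21.9 CPM in QSCs, which overlapped, and 18.7, 9.06 and 10.1 CPM in MyoD-tdTomato high cells. That list summed to 3841 to 4471 CPM in QSCs, 1837 to 3110 CPM in MyoD-tdTomato low and 3529 to 5538 CPM in MyoD-tdTomato high cells, most of it *Des* and *Acta2*, which muscle cells also express, and its part in the result was not tested. The calcium and energy list also held *Jph1*, which ties the surface membrane to the calcium store, *Ampd1*, the muscle AMP deaminase, and *Pvalb*, a calcium buffer, named here after their values were seen. *Jph1* was at 9.17 to 12.3 CPM in MyoD-tdTomato low cells, 26.6 to 30.3 in QSCs and 35.8 to 65.3 in MyoD-tdTomato high cells. *Ampd1* and *Pvalb* stood at most at 1.07 and 0.202 CPM in MyoD-tdTomato low cells.

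Among sarcomere genes a single one was called below both groups. Of 48 tested, 34 were called lower than in MyoD-tdTomato high cells, but 12 of the 48 were called higher than in QSCs and 7 lower. *Xirp2* alone was called below both groups, and 16 lay below both by fitted level. Over all genes these shares were 3.88%, 22.6%, 26.5%, 1.03% and, by fitted level, 27.6%. *Xirp2* encodes an actin-binding protein of muscle attachment sites and was at 9.54, 23.5 and 21.8 CPM in QSCs, 3.73, 0.426 and 1.35 CPM in MyoD-tdTomato low and 32.0, 11.1 and 17 CPM in MyoD-tdTomato high cells. The 3 groups did not overlap on the low side, but the libraries of each group differed widely (-3.31, SE 0.69, adjusted p = 0.0016 to the nearer group, QSCs). Against MyoD-tdTomato high cells the adjusted p was 0.00916, close to the threshold of 0.01. From the actin list, *Flnc*, the muscle filamin that crosslinks actin, was at 512 to 713 CPM against 1804 to 2435 in QSCs and 1035 to 1649 in MyoD-tdTomato high cells (-1.1, SE 0.19, adjusted p = 0.00487). Markers of mature myofibres share members with these lists. Of 19 tested, 4 (*Ckm*, *Pvalb*, *Pygm* and *Ampd1*, all of them also on the calcium and energy list) were below both groups, against 1.03% of all genes. By fitted level 13 lay below both, against 27.6% of all genes. The list summed to 774 to 1785 CPM in QSCs, 1185 to 2991 CPM in MyoD-tdTomato low and 8148 to 16162 CPM in MyoD-tdTomato high cells, so that the sums of MyoD-tdTomato low cells and QSCs overlapped. In MyoD-tdTomato low replicates 2 and 3 *Mybpc2*, a myosin-binding protein of fast fibres, was at 0, and no other marker on the list was at 0 in any library. The part of mature fibre RNA in these results was not tested.

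Promoters of the genes below both groups were read for short motifs in RefSeq's windows of 250 bases before to 50 after a gene start (GRCm38.p6, another build than that of the counts, so that starts could not be matched to the deposited gene models). A window was found for 99 of the 130 genes, 11 of the 15 and 9980 of all genes tested. A gene counted as having a motif if any of its listed starts had it, and the number of starts per gene was not compared between the sets. CAGCTG is a form of the E-box that MYOD is known to bind and that reads the same on both strands. It was present for 32.3% of the genes below both with a window, 27.3% (3 of 11) of those above both and 18.3% of all. CAGGTG, counted on both strands, was in 23.2%, 18.2% and 20.6%. The MEF2 box was in 1.01%, 0% and 0.501%, the CArG box in 5.05%, 9.09% and 1.62%, and TGANTCA, the AP-1 form, in 6.06%, 18.2% and 6.06%. Motifs were counted separately and may overlap, and a match describes the sequence only. Printed here are the 250 bases before the start of *Ckm* and *Pygm*, as energy genes with CAGCTG, and of *Xirp2*, the gene of the 99 with a MEF2 box, each on the plus strand of GRCm38.p6 at chr7:19410844-19411093, chr19:6384158-6384407 and chr2:67445752-67446001, with the motif in capitals.
Ckm: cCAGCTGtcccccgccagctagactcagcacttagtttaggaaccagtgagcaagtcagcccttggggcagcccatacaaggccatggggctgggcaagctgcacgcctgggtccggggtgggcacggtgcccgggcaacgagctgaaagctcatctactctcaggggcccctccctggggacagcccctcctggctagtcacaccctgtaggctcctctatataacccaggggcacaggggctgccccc
Pygm: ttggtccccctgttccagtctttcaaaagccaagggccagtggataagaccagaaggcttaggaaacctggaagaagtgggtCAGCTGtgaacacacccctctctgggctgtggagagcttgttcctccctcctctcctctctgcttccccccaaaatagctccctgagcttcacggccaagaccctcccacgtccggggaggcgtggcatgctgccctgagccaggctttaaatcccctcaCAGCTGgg
Xirp2: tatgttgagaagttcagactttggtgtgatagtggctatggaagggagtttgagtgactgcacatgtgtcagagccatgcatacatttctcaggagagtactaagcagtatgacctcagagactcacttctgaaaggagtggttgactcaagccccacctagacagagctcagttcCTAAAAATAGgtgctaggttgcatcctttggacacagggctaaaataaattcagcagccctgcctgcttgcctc

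The motif begins 249 bases before the start in *Ckm*, 168 and 8 bases before it in *Pygm* and 74 bases before it in *Xirp2*.

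*Chrnb1*, the β subunit of the acetylcholine receptor, was at 366, 406 and 377 CPM in QSCs, 122, 113 and 118 CPM in MyoD-tdTomato low and 227, 179 and 199 CPM in MyoD-tdTomato high cells. The 3 groups stood apart from each other with narrow spread (-0.78 to the nearer group, SE 0.11, adjusted p = 0.00177). *Musk*, the kinase that clusters these receptors, was at 67.9 to 71.4 CPM against 93.0 to 122 in QSCs and 138 to 178 in MyoD-tdTomato high cells (-0.59, SE 0.13, adjusted p = 0.00238). It passed the fold threshold barely and was not called with the block (-0.51 for replicate 1 against QSCs, adjusted p = 0.0374). On log2(TPM + 1) it lay above QSCs by 0.21, a scale on which the median of all genes moved from -0.07 to 0.67 in that comparison. These were 2 of 14 tested genes of the neuromuscular junction below both groups, where 1.03% of all genes were, and with the block *Chrnb1* was the only one. Of the 14, 7 were called lower than in MyoD-tdTomato high cells, as 3.88% of all genes were.

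Immediate early and stress genes are switched on within a short time of stimuli such as dissociation. Of 30 tested, 28 were lower in MyoD-tdTomato low cells than in QSCs, against 26.5% of all genes, and the part of dissociation in this was not tested. Of the 30, 5 had a lower level than MyoD-tdTomato high cells and 5 a higher one, and 4 of the former were below both groups. Over all genes these shares were 3.88%, 1.23% and 1.03%. *Gadd45a*, a DNA damage and stress protein, was at 514, 507 and 512 CPM in QSCs, 78.1, 34.8 and 55.3 CPM in MyoD-tdTomato low and 296, 179 and 219 CPM in MyoD-tdTomato high cells. It fell to the lowest level in MyoD-tdTomato low cells, while MyoD-tdTomato high cells kept an intermediate one (-2.04, SE 0.26, adjusted p = 0.00152). *Nr4a3*, an orphan nuclear receptor on chromosome 4 from 48045153 to 48086447, was at 596, 396 and 406 CPM in QSCs, 3.80, 2.27 and 3.80 CPM in MyoD-tdTomato low and 15.4, 9.97 and 12.1 CPM in MyoD-tdTomato high cells (-1.92, SE 0.25, adjusted p = 0.00152). Its gap to QSCs was wider, at -7.14 (SE 0.29). *Dusp8*, a phosphatase of stress-activated MAP kinases, was at 1.95 to 3.55 CPM against 150.4 to 210.2 in QSCs and 9.48 to 17 in MyoD-tdTomato high cells (-2.29, SE 0.27, adjusted p = 0.00131). *Sik1*, a salt-inducible kinase, was at 94.2 to 120.1 CPM against 300.1 to 516 and 229 to 267 (-1.21, SE 0.18, adjusted p = 0.00253). The list's medians were -4.20 against QSCs and 0.03 against MyoD-tdTomato high cells.

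Of 27 tested interferon response genes, 23 were called lower in MyoD-tdTomato low cells than in QSCs, against 26.5% of all genes. Against MyoD-tdTomato high cells 3 were called lower and 1 higher, where 3.88% and 1.23% of all genes were. The 3 called lower, which are GTPases of the cell-autonomous defence, were called below both, against 1.03% of all genes. *Igtp* was at 38.6, 65.6 and 55.6 CPM in QSCs, 0.746, 0.569 and 0.909 CPM in MyoD-tdTomato low and 4.61, 2.69 and 3.53 CPM in MyoD-tdTomato high cells, low in both cultured groups and lowest in MyoD-tdTomato low cells (-2.27, SE 0.31, adjusted p = 0.00172). *Gbp6* was at 1.28 to 4.05 CPM against 38.7 to 47.6 in QSCs and 12 to 14.8 in MyoD-tdTomato high cells (-2.45, SE 0.34, adjusted p = 0.00198). *Gbp4* was at 2.91 to 5.05 CPM against 7.87 to 16.6 and 13.2 to 15.2 (-1.66, SE 0.33, adjusted p = 0.00114) and was not called with the block (adjusted p = 0.0128). Each of these genes overlaps another on the same strand in the annotation (*Irgm2*, *Gm43302*, and *Gbp8* with *Gbp9*), so the split of reads among them is uncertain. Macrophage and myeloid markers summed to 195 to 297 CPM in QSCs, 34.6 to 61.2 CPM in MyoD-tdTomato low and 9.15 to 17.3 CPM in MyoD-tdTomato high cells, so the MyoD-tdTomato low libraries lay between, and their part in the result was not tested.

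*Rbpj*, the DNA-binding partner of all Notch receptors (chromosome 5, 53623494 to 53814704), was at 277, 219.6 and 227 CPM in QSCs, 73.8, 95.3 and 97.4 CPM in MyoD-tdTomato low and 179, 146 and 182 CPM in MyoD-tdTomato high cells. The highest MyoD-tdTomato low library, at 97.4 CPM, lay under the lowest other library, at 146 CPM (-0.93 to the nearer group, SE 0.14, adjusted p = 0.00308). It was 1 of 17 tested Notch pathway genes below both, while 12 lay between the groups, where 1.03% and 47.3% of all genes did. *Zeb1*, a repressor that binds E-boxes, was at 28.6 to 36 CPM against 85.7 to 111 in QSCs and 58.4 to 83.2 in MyoD-tdTomato high cells (-1.2, SE 0.17, adjusted p = 0.00185). *Cdkn1c*, the imprinted inhibitor p57 of cyclin-dependent kinases, was at 29.8, 24.5 and 30.7 CPM in QSCs, 14.9, 7.14 and 15.9 CPM in MyoD-tdTomato low and 44.4, 25.8 and 44.3 CPM in MyoD-tdTomato high cells (-1.17, SE 0.31, adjusted p = 0.0067). *Zdbf2*, also imprinted, was at 14.2 to 20.6 CPM against 85 to 93.0 and 52.8 to 102 (-2.05, SE 0.23, adjusted p = 0.00131). Of 19 tested imprinted genes, *Peg10* was thus above both groups and these 2 below both, where 0.119% and 1.03% of all genes were.

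Other genes below both groups came from several lists or from none. *Chrd*, the BMP antagonist chordin, was at 2.24 to 4.30 CPM against 10.9 to 22 in QSCs and 10.5 to 20.1 in MyoD-tdTomato high cells (-2.15, SE 0.37, adjusted p = 0.00439), and it overlaps *Thpo* on the other strand. *Htra3*, a secreted serine protease, was at 58.3 to 103 CPM against 348 to 482 and 143 to 238 (-1.23, SE 0.24, adjusted p = 0.00812). *Tnfrsf19*, a receptor of the TNF receptor family, was at 27.2, 20.4 and 25 CPM in QSCs, 1.60, 0.782 and 1.75 CPM in MyoD-tdTomato low and 13.9, 6.71 and 10.2 CPM in MyoD-tdTomato high cells, with a gap on both sides (-2.89, SE 0.36, adjusted p = 0.00149). *Cilp2*, a matrix protein known from cartilage, was at 21.3, 21.3 and 23.1, then 2.03, 0.355 and 1.78, then 20.5, 9.58 and 13.9 CPM in the same order of groups, with the MyoD-tdTomato low libraries far under all others (-3.39, SE 0.51, adjusted p = 0.00248). *Cbfa2t3* (a transcriptional corepressor), *Palmd* (palmdelphin), *Rap1gap2* (which switches off the GTPase RAP1), *Sptb* (β-spectrin), *Traf3ip3* (a partner of the adaptor TRAF3) and *Tmem252* had distances of -3.29, -2.73, -2.48, -2.53, -2.46 and -2.79. The largest distance of all, -3.40 (SE 0.55), was that of *Chdh*, the choline dehydrogenase, named after its values were seen. It was at 0.178 to 0.213 CPM in MyoD-tdTomato low cells, 4.36 to 12.7 in QSCs and 1.64 to 2.51 in MyoD-tdTomato high cells. It was not called with the block (adjusted p = 0.0112).

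**Figure D3:**
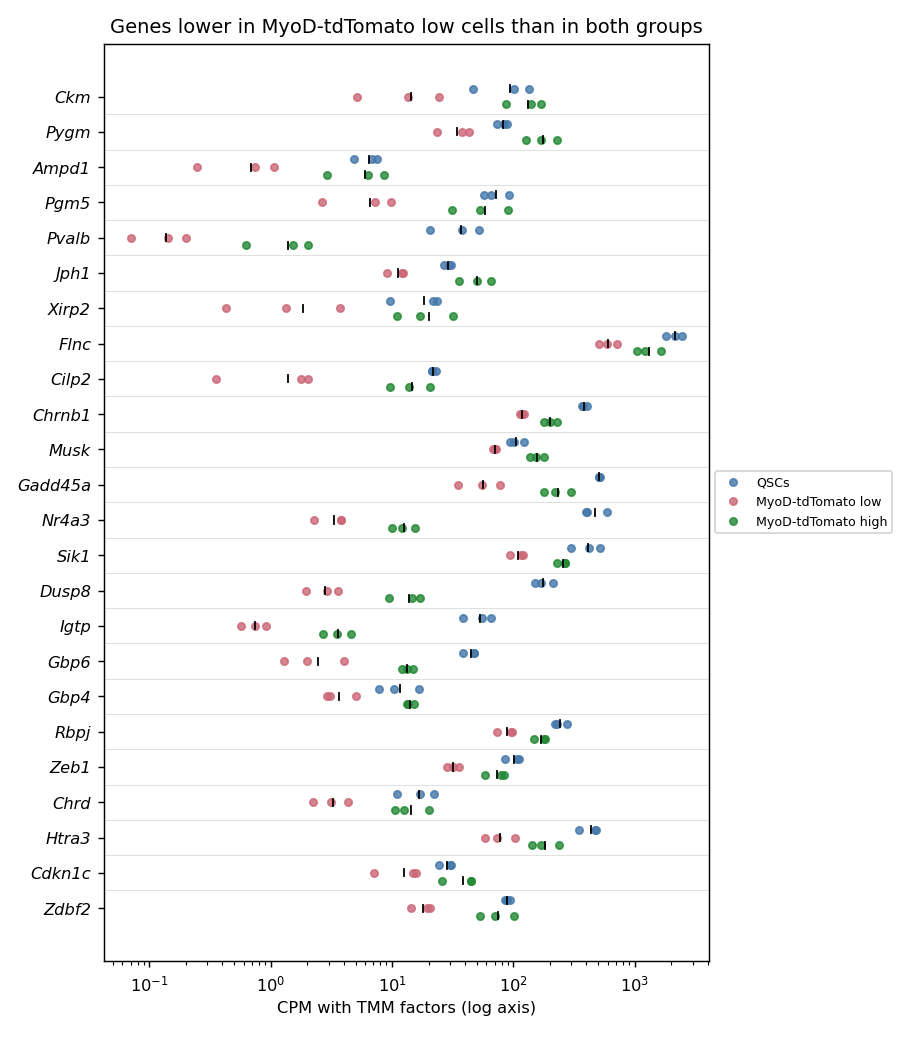
Level of 24 of the 130 genes below both groups in each library, in CPM with TMM factors on a log axis, with 3 points per group and a short bar at the group mean, ordered from muscle energy genes at the top to regulators at the bottom. The MyoD-tdTomato low points lie to the left of all others in every line, and for *Gadd45a*, *Nr4a3*, *Dusp8* and *Igtp* the MyoD-tdTomato high points lie in the middle while for *Ckm*, *Ampd1*, *Xirp2* and *Cilp2* they overlap or adjoin those of QSCs.

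The replicates within the cultured groups had a common order at these genes. MyoD-tdTomato high replicate 2 was the lowest of its group at 122 of the 130 genes (93.8%, against 38.4% of all genes tested), and MyoD-tdTomato low replicate 2 the lowest of its group at 104 (80%, against 36.4%). Among the 15 genes above both, MyoD-tdTomato high replicate 2 was the highest of its group at 13. Myofibre marker sums followed the same order, at 1185 CPM in MyoD-tdTomato low replicate 2 against 2078 and 2991 in the others, and at 8148 CPM in MyoD-tdTomato high replicate 2 against 11770 and 16162.

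Genes of the cell cycle gave many positions above both groups and no call. All 46 tested genes of DNA replication lay above both groups by fitted level and 40 were called higher than in QSCs, but none was called against MyoD-tdTomato high cells. Their median log2 fold change was 2.13 against QSCs and 0.43 against MyoD-tdTomato high cells. Of 37 tested mitosis genes 36 lay above both, with medians of 3.61 and 0.24, and again none was called against MyoD-tdTomato high cells. All 46 replication genes stayed above both by fitted level in each of the 6 other scalings or tools, as did 36 or 37 of the mitosis genes, and DESeq2 called 1 gene of each list above both. *Cdkn1c* was the only one of 23 tested G1 regulators called below both, and *Ccnd1*, cyclin D1, was called above both with the block alone (log2 fold change 0.59, adjusted p = 0.00809).

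In the lists of angiogenic ligands and receptors (30 tested), cytokines (22), pentose phosphate and NRF2 targets (22), glycolysis (19), cholesterol synthesis (26) and myogenic factors (33), no gene was called above or below both groups. With the block *Csf1* of the cytokines and *G6pdx*, the entry enzyme of the pentose phosphate pathway (0.80, adjusted p = 0.00907), were called above both. DESeq2 called 4 angiogenic, 2 cytokine, 5 pentose phosphate or NRF2 and 1 cholesterol synthesis gene above both and 1 myogenic gene below both. Among 9 tested MuSC markers, 6 tested Schwann cell markers and 1 tested lymphocyte marker none was called either.

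**Figure D4:**
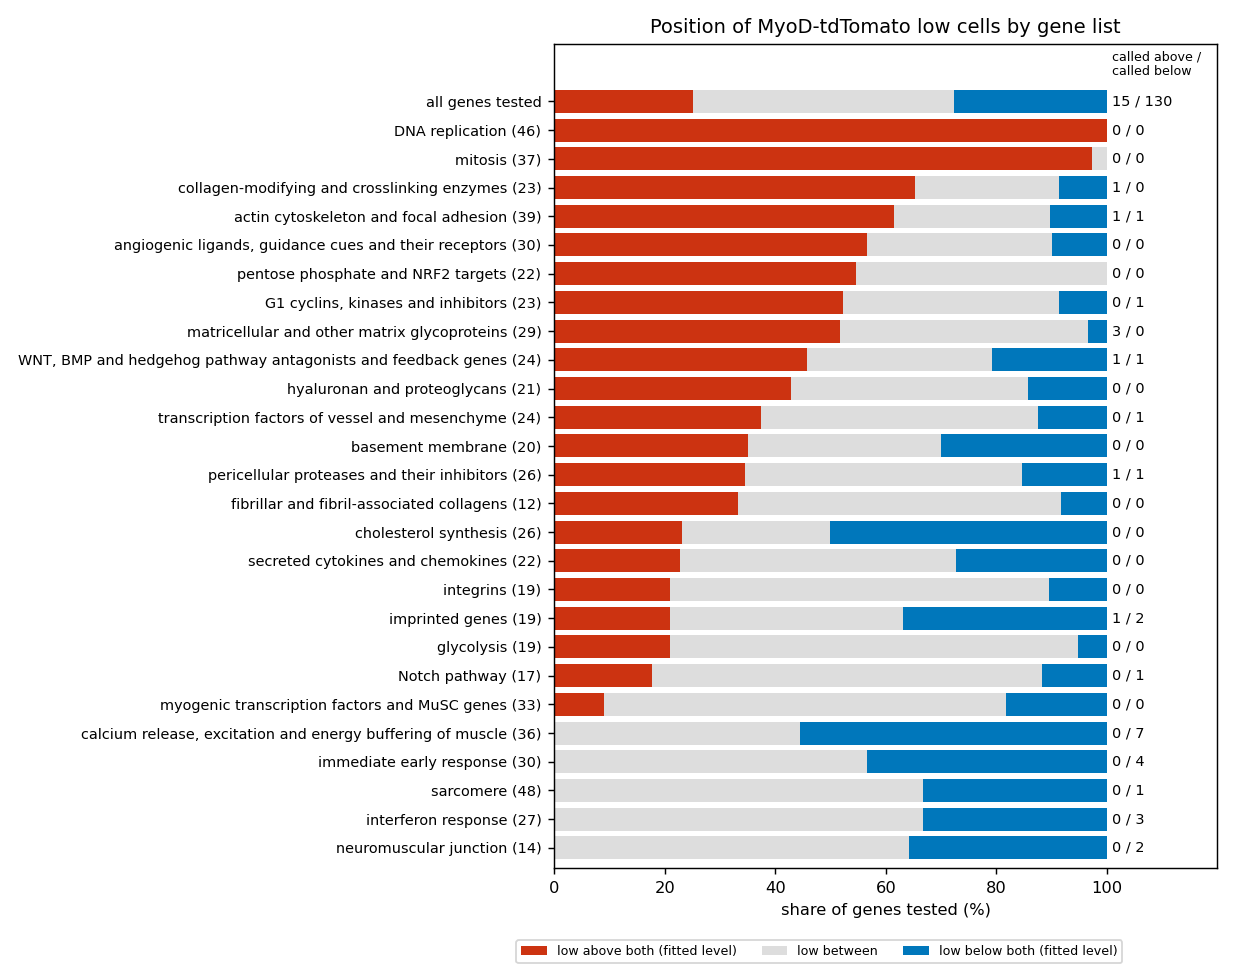
Share of the tested genes of each function list whose fitted level in MyoD-tdTomato low cells lay above both other groups (red), between them (grey) or below both (blue), in percent, with the number of genes tested in brackets and the numbers called above and below both at the right. DNA replication (46 of 46) and mitosis (36 of 37) lie at the top, and the 5 muscle, stress and interferon lists at the bottom hold no gene above both, where 25.1% of all genes lie above both and 27.6% below.

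The call against both groups rests on a threshold. Just inside it above were *Anxa1* and *Efemp2*, with larger adjusted p of 0.00943 and 0.00957 over the 2 comparisons, and just outside *Adcy6* and *Axl* (0.0100171 and 0.0100727), which differed little in distance (0.73, 0.61, 0.68 and 0.68). Just inside it below were *Eepd1* and *Hdac11* (0.0098 and 0.0099) and just outside *Cecr2* and *Vma21* (both 0.0100171). With the block *Axl* was called (adjusted p = 0.00445) and *Eepd1* and *Hdac11* were not (0.023 and 0.0136).

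With the replicate number as a block over the cultured groups, 19 genes (0.151%) were above both and 101 (0.801%) below both, of which 9 and 83 were shared with the fit without it. In that fit QSCs were set against the level of replicate 1, so these counts are not a paired form of the same comparison with QSCs. The counts depended on single libraries. Above both they were 26 without QSCs replicate 1, 38 without QSCs replicate 2, 5 and 3 without MyoD-tdTomato low replicate 1 and 3, and 2, 27 and 1 without MyoD-tdTomato high replicate 1, 2 and 3. Below both they were 72, 47 and 27 without MyoD-tdTomato low replicate 1, 2 and 3 and 28 and 27 without MyoD-tdTomato high replicate 1 and 3. *Fn1* alone of the 15 kept its call whichever library was left out, and 22 of the 130 did, among them *Nr4a3*, *Dusp8*, *Igtp*, *Pygm*, *Zdbf2*, *Tnfrsf19*, *Palmd* and *Rap1gap2*, all with an adjusted p of at most 0.00949. *Fn1* and 13 genes below both kept their call in all other alternatives too, among them *Nr4a3*, *Dusp8*, *Igtp*, *Zdbf2*, *Tnfrsf19*, *Palmd* and *Rap1gap2*, and *Hipk3*, *Pvr*, *Fxyd6*, *Tmcc3* and *Arhgap28*, which are named after their values were seen.

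The remaining named genes kept their direction in every fit with a library left out, and lost the call in some. *Lasp1* lost it without MyoD-tdTomato high replicate 3 (adjusted p = 0.0113), *Abcc9* and *Gadd45a* without MyoD-tdTomato low replicate 3 (0.014 and 0.0109), *Ehd2* and *Zeb1* without MyoD-tdTomato high replicate 1 or 3 (at most 0.0116), and *Gbp6* without MyoD-tdTomato low replicate 3 or MyoD-tdTomato high replicate 1 (0.014). *Hdac7*, *Cilp2*, *Cbfa2t3*, *Pgm5*, *Tmem252*, *Ckm* and *Chrnb1* lost it without MyoD-tdTomato low replicate 3 or MyoD-tdTomato high replicate 1 or 3 (at most 0.0245), *Sptb*, *Chrd*, *Flnc* and *Sik1* also without MyoD-tdTomato low replicate 2 (at most 0.0278), *Rbpj* also without MyoD-tdTomato low replicate 1 (0.0188), and *Mgp* without MyoD-tdTomato low replicate 3 or any MyoD-tdTomato high library (0.026). *Loxl3*, *Tsku*, *Col6a3*, *Peg10*, *Eml1*, *Anxa1*, *Dab2*, *Efemp2*, *Mmp14*, *Xirp2*, *Traf3ip3*, *Cdkn1c*, *Gbp4*, *Musk* and *Htra3* each lost it in 5 to 8 of the 9 fits, with a highest adjusted p of 0.0112 for *Musk*, which in most of these fits missed the fold threshold, to 0.0651 for *Efemp2*. Of the genes named outside the rule, *1700017B05Rik*, *Ampd1*, *Pvalb* and *Chdh* lost it without MyoD-tdTomato low replicate 1, 2 or 3 and without MyoD-tdTomato high replicate 1 or 3 (adjusted p up to 0.0376, 0.0324, 0.0312 and 0.0212), *Pvalb* also without QSCs replicate 2, and *Jph1* kept it.

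**Figure D5:**
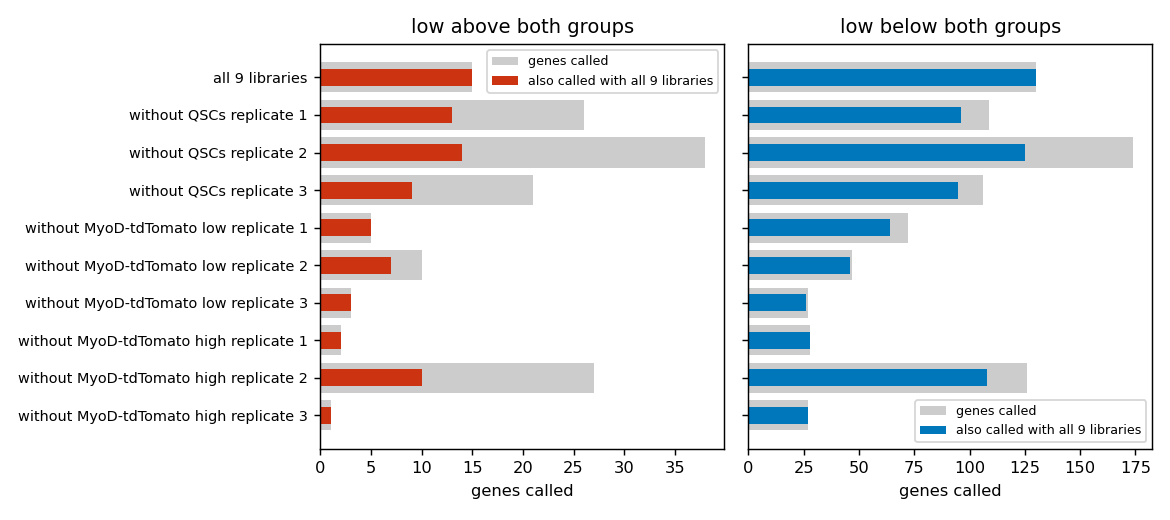
Number of genes called above both groups (left) and below both (right) with all 9 libraries and with each library left out, in grey, and the number among them that were also called with all 9 libraries, in colour. Without QSCs replicate 2 the counts were 38 and 174, with 14 and 125 shared, and without MyoD-tdTomato high replicate 3 they were 1 and 27, all shared.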

How the data were processed

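The 9 RNA-seq libraries were grouped by the sample labels into 3 groups of 3. The authors made poly(A) libraries, sequenced paired-end reads of 36 bases, and used CLC Genomics Workbench 20.0.3, with default options and GRCm39, for mapping and counting. Neither annotation version nor strand use is stated. The deposited counts are whole numbers per gene and library with no normalization, and the deposited TPM come from the same mapping, scaled within each library. Left unused were 18 more columns with values of single samples and 24 that hold comparisons made by the authors (fold changes and p-values).

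As in the study, a gene needed a count above 0 in every library, which left 12614 of 25655. The filter also removes genes that are near 0 in MyoD-tdTomato low cells alone. R 4.3.3 and edgeR 4.0.16 were used for the fit to the counts (scaled by TMM, quasi-likelihood with robust estimation, 3 group coefficients over 9 libraries), with Benjamini-Hochberg adjustment over all genes tested, and calls needed adjusted p below 0.01 with more than 1.5-fold change. Levels are CPM with TMM factors. The members, the 26 function lists and the 10 marker lists were chosen with earlier results of these data known. Genes named are, in each direction, the 12 farthest from the nearer group among those called against both, with at least 10 CPM on average in MyoD-tdTomato low cells (above) or in the lower of the other groups (below) and no overlap of libraries (predicted genes and clone names left out), up to 4 members of each list called against both, and the genes the study names for this population. Exceptions are marked, and 1 gene that the rule takes is not reported here. A family of 3 tests per gene was used (the contrast and MyoD-tdTomato low cells against each group).

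Deviations from the group means correlated across genes at 0.44, 0.43 and 0.18 between same-numbered libraries of the cultured groups, and at -0.046 to 0.013 between QSCs and cultured ones, so the numbers pair the cultured libraries only. The block over the cultured groups sets QSCs against the fitted level of replicate 1 and not against the mean of the MyoD-tdTomato low libraries. No pair of libraries held identical counts. On simulated data over 12614 genes, 58% of 2-fold changes were recovered on each side, 92% of 4-fold changes above both groups and 78% below both, with 2 unchanged genes called. Unchanged genes were set halfway between QSCs and MyoD-tdTomato high cells on the log2 scale, and libraries were drawn without pairing. The real cultured libraries are paired, and MyoD-tdTomato low cells lie near MyoD-tdTomato high cells at most genes. The 2 calls therefore do not give the rate of false calls in the real data. The alternatives comprised DESeq2 1.42.0, scaling by RLE, upper quartile or library totals alone, limma 3.58.1 on log2(TPM + 1) and log2(TPM + 0.1), other filters and thresholds, the replicate block, and leaving out each library or the mitochondrially encoded genes. Leaving out QSCs replicate 2 with the genes tested held fixed was added after seeing the data.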

Additional observations from a re-analysis of the deposited data

How the results depend on the processing

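MyoD-tdTomato low cells were above both groups at 15 genes and below both at 130 with TMM scaling. The counts were 93 and 233 with DESeq2, 26 and 106 with RLE, 31 and 101 with upper-quartile scaling, 52 and 62 with library totals alone, 58 and 42 on log2(TPM + 1), 37 and 39 on log2(TPM + 0.1), 66 and 271 at an adjusted p under 0.05, and 7 and 86 at a fold change of 2. The share above both among these calls went from 10.3% to 28.5%, 19.7%, 23.5%, 45.6%, 58% and 48.7% over the first 6. The contrast called 4651, 4491 and 1726 genes on log2(TPM + 1), on log2(TPM + 0.1) and at a fold change of 2, of which 3560, 3465 and 1276 were off the line. Its share of higher genes was 43.4% with TMM, 73% with library totals and 82% and 82.4% on the TPM scales, where the median of all genes against QSCs moved, on the log2 scale, from -0.07 to 0.38, 0.67 and 0.76. All 15 genes above both kept their side under these 6, and 114 of the 130 below both did, while 16 did not. *Musk* turned to 0.21 and 0.22 against QSCs on the TPM scales. The cause of these changes was not tested. With 1 library left out the counts were 1 to 38 above both, 27 to 174 below both, 1978 to 3619 in the contrast and 1430 to 2617 off the line, lowest in the last pair without MyoD-tdTomato low replicate 3 and MyoD-tdTomato low replicate 2. With QSCs replicate 2 left out and the genes tested held fixed they were 38 and 169. The replicate block over all libraries gave 19 and 152. Over the cultured groups, with QSCs set against replicate 1, it gave 19 and 101. The calls that this second block changed among the genes described are given with them. Among genes named by the rule, *Xirp2* lost the call (adjusted p = 0.0113) and *Lamb1* gained it (adjusted p = 0.00506) with the block over all libraries only. Other alternatives kept the counts within 1.5 times. Single genes named lost the call in 148 and gained it in 4 of their comparisons with 1 library left out, and lost it in 76 and gained it in 19 under other alternatives.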

Other observations

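The zero filter left out 2082 genes that edgeR's own expression filter would keep. Of these 1 was below both groups when tested and none was above both. *Edn3*, which encodes endothelin 3, a peptide ligand of endothelin receptors, was at 130.3, 96.0 and 97.0 CPM in QSCs. It had 8, 0 and 2 counts in MyoD-tdTomato low replicates 1, 2 and 3 and 44, 28 and 60 counts in MyoD-tdTomato high replicates 1, 2 and 3, so every MyoD-tdTomato low library lay below every other library.

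The genes below both groups had a median span of 36202 bases in the annotation, those above both 18390, and all genes tested 25448. Of the 145 genes called against both groups, 43 overlap another gene in the table, and for 25 of them the other gene holds more than 10% of their mean level.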
